A study of Mus musculus with 22 samples.

Results

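A set of 35 mRNAs that encode large proteins of the cytoskeleton, molecular motors and regulators of small GTPases, all known as bound by the RNA-binding protein FMRP, were followed in striatal neurons that express the dopamine receptor Drd1 (D1 neurons). The 35 genes were taken by symbol from a list with no measured value in its rule, though drawn up with earlier results of these data known, and all 35 were found among the 55341 symbols counted and passed the filter on low counts in every comparison. They comprised 5 microtubule-associated proteins (Map1a, Map1b, Map2, Nav1 and Nav3), 7 proteins of the membrane skeleton and its links (Ank2, Ank3, Sptbn1, Sptan1, Plec, Tln2 and Phactr1), 6 motors (Kif1a, Kif1b, Kif5a, Kif5c, Dync1h1 and Myo5a), 6 exchange factors for Rac or RhoA (Trio, Kalrn, Tiam1, Dock3, Dock4 and Arhgef12), 4 GTPase-activating proteins for Rac, Cdc42 or RhoA (Arhgap32, Srgap3, Abr and Bcr), 5 regulators of Arf GTPases (Agap1, Agap2, Agap3, Iqsec1 and Iqsec2) and 2 regulators of Rap GTPases (Sipa1l1 and Rapgef2).

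All animals carried an EGFP-tagged copy of the large-subunit ribosomal protein Rpl10a in their Drd1-expressing medium spiny neurons. The mutant group (KO) held 5 mice mutant for Fmr1, the gene for FMRP, numbered 2, 3, 9, 10 and 11. The wild-type group (WT) held 6 mice with the same tag, numbered 1, 4, 12, 13, 14 and 20. From each striatal lysate, cleared of nuclei and treated with cycloheximide to hold ribosomes on mRNA, ribosomes with the tag were captured by anti-EGFP antibodies (translating ribosome affinity purification, called IP), and a portion of the lysate set aside before the pulldown gave the input library, 22 libraries in all. The labels call the mutation FMRP mutant. The allele, the age and strain of the mice and the promoter of the transgene are not given in the sources used here, and the IP reports mRNA on ribosomes, not the rate at which each is translated.

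FMRP binds a broad set of long neuronal mRNAs, largely along their coding sequence, and is known chiefly as a brake on their translation. Its loss causes fragile X syndrome, in which dendritic spines are abnormally long and immature. Microtubule-associated proteins and motors shape and supply dendrites and axons, the spectrin and ankyrin network supports the membrane, and exchange factors and GTPase-activating proteins switch small GTPases such as Rac, Arf and Rap on and off, which sets actin assembly and membrane traffic at the spine. Medium spiny neurons are densely covered with such spines.

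Members shared long transcripts. The total exon length, that is the union of all annotated exons of a gene (GENCODE vM21, GRCm38/mm10), ran from 5321 bases for Agap3 to 35004 for Ank2, with a median of 14448 against 4715 over the 12462 genes tested in IP that have a coding sequence. The longest annotated coding sequence ran from 1947 bases for Phactr1 to 14073 for Plec, with a median of 5484 against 1434. The motif WGGA, read here as AGGA or TGGA on the mRNA strand, was linked to FMRP by crosslinking in human cells. Its density had a median of 17.9 per kb of coding sequence in the members against 16.3 over those genes, and 22 of 35 members lay above that median. A second motif from the same kind of experiment, ACTG or ACTT, had a median of 7.22 per kb in the members against 8.25, with 8 of 35 above it.

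The densest 60-base window of AGGA and TGGA in the coding sequence is shown for 6 members, because these stretches differ widely among mRNAs grouped by one label. Kif1a and Map1a carry the most matches among the members, Kalrn and Dock4 are the exchange factors highest in IP over input, Iqsec1 had the smallest p between the genotypes in IP, and Kif5a is the member lowest in IP over input. The 6 were chosen after their values were seen. Capitals mark the matches, and the last A of a match may be the first letter of the next.
Kif1a: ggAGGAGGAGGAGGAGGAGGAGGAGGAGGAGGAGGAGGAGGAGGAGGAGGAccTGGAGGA
Map1a: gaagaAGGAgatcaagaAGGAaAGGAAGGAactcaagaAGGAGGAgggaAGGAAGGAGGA
Kalrn: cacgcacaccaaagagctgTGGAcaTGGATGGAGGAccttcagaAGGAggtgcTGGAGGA
Dock4: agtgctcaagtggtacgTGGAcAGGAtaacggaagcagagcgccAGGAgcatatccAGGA
Iqsec1: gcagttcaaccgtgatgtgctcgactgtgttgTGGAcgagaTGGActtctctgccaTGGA
Kif5a: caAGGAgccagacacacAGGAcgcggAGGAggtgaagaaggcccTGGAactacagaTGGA
The Kif1a window, bases 2721 to 2780 of the coding sequence, was an almost unbroken GGA repeat with 18 matches. A window with at least 18 was found in 2 of 21561 coding sequences (0.00928%), those of Kif1a and Epb41l1. The Map1a window (bases 1971 to 2030) held 9 matches, a number that 1.09% of coding sequences reach and 5.39% of those of at least 5000 bases. The Kalrn window (1887 to 1946) held 7, which 3.36% of all and 13.6% of the long ones reach. Dock4 (bases 2040 to 2099) had 4, Kif5a (2052 to 2111) had 5 and Iqsec1 (1701 to 1760) had 3. A window with at least 4 matches was found in 32 of 35 members, in 53.6% of all coding sequences and in 97.4% of the 742 that are at least 5000 bases long, since a longer sequence offers more windows. A match is a string of letters and not a measured binding site.

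Fmr1 was lower in every KO library than in every WT library, as the labels have it. It stood at 10.8, 11.3, 8.16, 10.4 and 9.23 CPM in KO IP (animals 2, 3, 9, 10 and 11) and at 70.1, 81.7, 88.6, 82.6, 87.1 and 108 CPM in WT IP (animals 1, 4, 12, 13, 14 and 20), and at 11.1 to 15.0 CPM in KO input and 59.7 to 72.5 CPM in WT input. CPM are read counts scaled to a common library size, corrected by TMM over the 22 libraries, and per-animal values below keep this order of animals. Total counts ran from 9375611 to 82376192 in IP and from 25164548 to 43276230 in input. The pulldown matched its label in most lists: all 10 listed D1 markers were higher in IP than in input in KO and in WT, and all 6 tested D2 markers, 10 of 10 astrocyte, 12 of 12 oligodendrocyte and 11 of 11 microglia markers were lower. Interneuron markers were called lower in 8 of 10 in KO and 10 of 10 in WT, and endothelial markers in 4 of 8 and 6 of 8. Of 10 cortical excitatory neuron markers 1 was called higher and 1 lower in each genotype. Cortical excitatory neuron markers set KO animals 3 and 9 and WT animals 1 and 12 apart, with a mean of 3.29 to 4.27 log2 CPM in their IP and at most 0.62 in the other 7 animals. The main results are therefore also given with and without these 4 animals.

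The first comparison asked how much of each mRNA sat on D1 ribosomes relative to the whole lysate. Most members were enriched: in KO animals 28 of 35 rose in IP over input and 2 fell, and in WT animals 30 rose and 1 fell (edgeR quasi-likelihood test, adjusted p under 0.05). Among all 17311 genes tested, 20.9% rose and 26.4% fell in KO, and 21.8% rose and 27.8% fell in WT. Long genes rose more often: with over 12 kb of exon, where 23 members lie, 45.0% rose in KO and 48.3% in WT. The members' median log2 fold change was 0.55 in KO and 0.59 in WT, against a median of -0.11 over all genes in each genotype. The animals' own ratios gave the same picture, with IP above input in all 5 KO animals for 29 members (22.9% of all genes) and in all 6 WT animals for 30 members (21.8% of all genes). In KO, where animals 3 and 9 alone gave 19 members called and a median of 0.38, the other 3 animals gave 30 and a median of 0.69. Input holds RNA of every striatal cell type, so in these bulk samples fewer cells of a type and less RNA per cell cannot be told apart. Nor can the ratio tell a higher mRNA level in D1 neurons than in other cells from a larger share on ribosomes.

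The exchange factors for Rac and RhoA, which load GTP onto them, were the role with the highest median ratio. All 6 rose in KO and in WT, and their median log2 ratio was 1.00 in KO and 1.11 in WT. The 2 Rap regulators came close, with a median of 0.97 in KO and 0.91 in WT. Kalrn, kalirin, a Rac exchange factor of the spine (chr16:33969073-34573532, minus strand), stood at 745, 760.0, 1155, 967 and 914 CPM in KO IP against 201, 225, 347, 204 and 208 CPM in KO input. In WT it stood at 1027, 844, 1137, 1085, 1008 and 1166 CPM in IP against 239, 221, 272, 195, 221 and 314 CPM in input. The lowest Kalrn level in IP was thus above its highest level in input in both genotypes, and the log2 fold change was 1.94 ± 0.15 (SE, n = 5) in KO and 2.10 ± 0.14 (SE, n = 6) in WT, the highest of the members. Standard errors of IP over input, here and below, do not use the pairing of an animal's IP and input. With the animal as a block, those of Kalrn were 0.082 in KO and 0.075 in WT.

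Dock4, a Rac exchange factor (chr12:40445952-40846874, plus strand), followed with 1.36 ± 0.12 in KO and 1.32 ± 0.11 in WT. Its levels were 342, 313, 358, 344 and 347 CPM in KO IP against 133, 129, 122, 151 and 126 CPM in KO input. The WT libraries held 403, 467, 353, 417, 405 and 594 CPM in IP against 186, 184, 135, 152, 170.2 and 233 CPM in input, and no IP library overlapped an input library in either genotype. Trio, the paralogue of kalirin (chr15:27730651-28025848, minus strand), rose by 1.08 in KO and 1.22 in WT. Trio was at 301, 306, 339, 397 and 365 CPM in KO IP against 151, 184, 177, 153 and 144 CPM in KO input. WT IP held 351, 343, 369.8, 440.0, 366 and 446 CPM against 174, 176, 152, 162, 158 and 176 CPM in WT input, again without overlap. Dock3, a brain Rac exchange factor with 8.10% of its exon bases shared with other genes, was at 0.92 in KO and 1.00 in WT. Tiam1, which activates Rac, was at 0.82 and 0.82, and Arhgef12, which activates RhoA, at 0.55 and 0.67, all called in both.

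**Figure D1:**
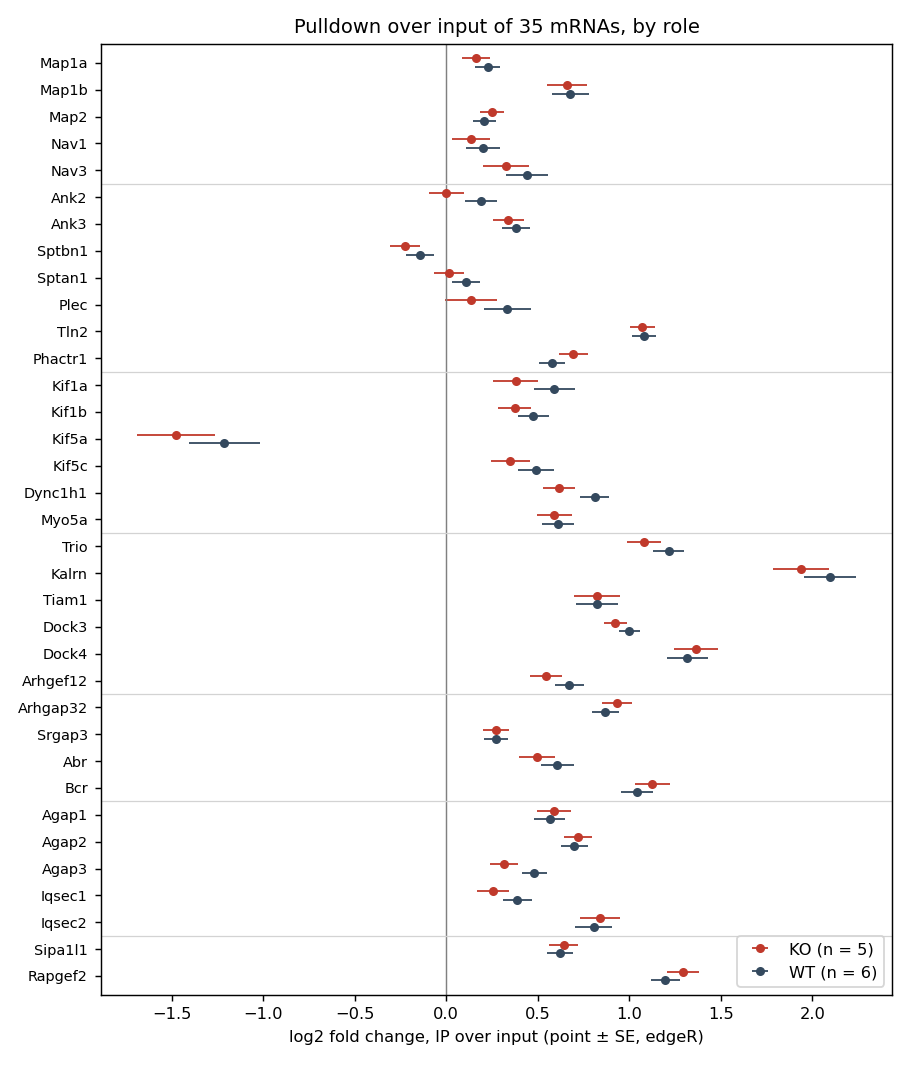
Log2 fold change of IP over input for each of the 35 mRNAs (x axis), with KO above WT in each row and bars for the standard error; grey lines part the 7 roles. Kalrn lies farthest right at 1.94 in KO and 2.10 in WT, and Kif5a lies farthest left at -1.48 in KO and -1.21 in WT.

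The GTPase-activating proteins and the Arf and Rap regulators were all enriched as well, 11 of 11 in each genotype. Among those acting on Rac, Cdc42 or RhoA, which return GTPases to their off state, Bcr rose by 1.13 in KO and 1.04 in WT, and Arhgap32 by 0.93 and 0.87. Abr, a close relative of Bcr, gave 0.50 in KO and 0.61 in WT. Srgap3, which also bends membranes, gave the smallest ratio of the 4 at 0.27 in each. Rapgef2, which activates Rap, rose by 1.30 in KO and 1.20 in WT, and Sipa1l1, a Rap GTPase-activating protein of the postsynaptic density, by 0.64 and 0.62.

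Arf regulators act on membrane traffic and receptor recycling. Of the exchange factors for Arf6, Iqsec2 rose by 0.84 in KO and 0.80 in WT, and Iqsec1 by 0.25 and 0.39, the KO call of Iqsec1 being lost without animal 10 (0.20). Their paralogue Iqsec3, which is no member and is known at inhibitory synapses, fell (-0.86 in KO and -0.77 in WT). The Arf GTPase-activating proteins Agap1 (0.59 in KO and 0.57 in WT), Agap2 (0.72 and 0.70) and Agap3 (0.32 and 0.48) all rose.

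Microtubule-associated proteins had low ratios, with a median of 0.25 in KO and 0.23 in WT. Map1b, which stabilises microtubules and is a long-studied FMRP target, rose by 0.66 in KO and 0.68 in WT. Map2, the dendritic microtubule protein, rose by 0.25 in KO and 0.21 in WT, and Nav3, a neuron navigator, by 0.33 and 0.44. The KO call of Nav3 was lost under 7 of 18 alternatives, among them RLE scaling and DESeq2 (0.28 each) and leaving out animal 2 (0.29), 10 (0.29) or 11 (0.30). Map1a, the adult relative of Map1b, rose in WT by 0.23 and was not called in KO at 0.16 (adjusted p = 0.0766). The WT call of Map1a was lost without animal 14 (0.19), and in KO Map1a was called without animal 3 (0.24) or animal 9 (0.22). Nav1 was called in neither, at 0.14 in KO and 0.20 in WT, and with the animal as a block it was called in WT at 0.21 (adjusted p = 0.0279).

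The membrane skeleton was divided, with a median of 0.14 in KO and 0.33 in WT. Tln2, talin 2, which ties integrins to actin, rose by 1.07 in KO and 1.08 in WT, and Phactr1, which binds actin and protein phosphatase 1, by 0.69 and 0.58. Ank3, the ankyrin of the axon initial segment, rose by 0.34 in KO and 0.38 in WT. Ank2, the broadly neuronal ankyrin B, was at -0.000354 in KO and 0.19 in WT and was called in neither, though with the animal as a block it was called in WT at 0.19 (adjusted p = 0.0211). Plec, plectin, which crosslinks intermediate filaments, was called in WT alone (0.33, adjusted p = 0.0315) and stood at 0.14 in KO (adjusted p = 0.457). The WT call of Plec was lost under 7 of 18 alternatives, among them leaving out animal 1 (0.34), 4 (0.30) or 14 (0.21).

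Both spectrins lay near or below input. Sptan1, the alpha II spectrin (chr2:29965560-30031451, plus strand), stood at 432, 379, 494, 483 and 442 CPM in KO IP against 424, 453, 515, 427 and 385 CPM in KO input. WT IP held 533, 468, 470.1, 499, 433 and 526 CPM against 483, 451, 502, 409, 429 and 443 CPM in WT input, so that IP and input overlapped in both genotypes, and neither fold was called (0.02 in KO and 0.11 in WT). Sptbn1, its beta II partner (chr11:30099395-30268175, minus strand), fell in KO (-0.23, adjusted p = 0.0259), with 413, 443, 483, 504 and 471 CPM in IP against 487, 561, 614, 535 and 508 CPM in input. In WT it stood at 471, 472, 535, 544, 513 and 639 CPM in IP against 508, 579, 594, 594, 603 and 629 CPM in input and was not called (-0.14, adjusted p = 0.117), but was with the animal as a block (-0.15, adjusted p = 0.0200). Each of the 5 KO animals had less Sptbn1 in IP than in its own input, and the KO call was lost under 5 of 18 alternatives, among them without animal 3 (-0.20) or animal 9 (-0.19). Other spectrins, which are no members, gave other values: Sptb rose by 0.31 and Sptbn4 by 0.35 in WT, and neither was called in KO (0.08 and 0.25).

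The motors divided. Dync1h1, the heavy chain of cytoplasmic dynein, which carries cargo toward the cell body, rose by 0.62 in KO and 0.81 in WT, as did Myo5a, an actin motor of spines (0.59 and 0.61). Kif1a and Kif1b, kinesins of synaptic vesicle precursors, rose by 0.38 and 0.37 in KO and by 0.59 and 0.48 in WT. The KO call of Kif1a was lost without animal 10 (0.34). Kif5c, a heavy chain of conventional kinesin, rose by 0.35 in KO and 0.49 in WT.

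Kif5a, another heavy chain of the same motor (chr10:127225696-127263348, minus strand), was the exception. It stood at 350.5, 559.9, 648, 527 and 541 CPM in KO IP against 803, 1649, 1848, 1264 and 1748 CPM in KO input. WT IP held 432, 452, 504, 489, 467 and 370.0 CPM against 738, 1221, 1116, 1283, 1217 and 709.9 CPM in WT input. IP lay below input in each of the 11 animals, and the log2 fold change was -1.48 ± 0.21 (SE, n = 5) in KO and -1.21 ± 0.19 (SE, n = 6) in WT. With the animal as a block the standard errors were 0.090 in KO and 0.082 in WT. Kif5b, the third heavy chain, which is no member, was not called at -0.06 in KO and 0.04 in WT, so the 3 paralogues of 1 motor had 3 different ratios. Of the interneuron markers 8 of 10 fell in KO, with a median of -4.16, and 10 of 10 fell in WT, with a median of -4.62. Endothelial markers had a median of -1.51 in KO and -2.28 in WT, and cortical excitatory neuron markers one of -0.78 in KO and -0.43 in WT. The part of other cell types in the Kif5a ratio was not tested.

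Levels differed widely between members. Per kb of exon, Map1b was the most abundant in IP, at 139.6 CPM per kb in KO and 160.0 in WT, followed by Phactr1 (112 and 119) and Kif5c (91.2 and 95.0). Plec was the least abundant, at 1.40 CPM per kb in KO IP and 1.75 in WT IP. In input Kif5a was the highest, at 209 CPM per kb in KO and 149.8 in WT. Together the 35 mRNAs took 1.90% to 2.13% of the counts in KO IP and 2.06% to 2.22% in WT IP. Their share of input counts was 0.703% to 1.27% in KO and 1.10% to 1.30% in WT, in libraries where mitochondrial ribosomal RNA took 30.6% to 53.2% of the counts in KO and 25.1% to 37.1% in WT.

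The second comparison, mutant against wild type in IP, asked which of these mRNAs differ on D1 ribosomes without FMRP. No member passed: 0 of 35 were called by edgeR, against 8 of 14456 genes (0.0553%), and DESeq2 called 1 of 35, Iqsec1, against 75 genes (0.519%). The fold changes were small but leaned one way, with 34 of 35 members below 0 (49.3% of all genes tested) and a median log2 fold change of -0.12 against 0.00 over all genes. At an unadjusted p under 0.05 there were 14 members, all lower in KO, where 4.51% of all genes were lower at that level. Only Kif5a lay above 0. The standard errors of the members' log2 fold changes ran from 0.05 (Map2) to 0.14 (Plec).

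Each role had a median below 0, though of unequal size. Over all genes tested with over 12 kb of exon the median was -0.05. The median log2 fold change of KO over WT was -0.19 for the exchange factors for Rac and RhoA, -0.13 for the microtubule-associated proteins and for the GTPase-activating proteins for Rac, Cdc42 or RhoA, -0.12 for the membrane skeleton, -0.07 for the motors and -0.06 for the Arf regulators. The 2 Rap regulators lay at -0.18 (Sipa1l1) and -0.11 (Rapgef2). The mean level of the 35 mRNAs was 8.37 to 8.54 log2 CPM in the KO libraries and 8.52 to 8.66 log2 CPM in the WT libraries, so the 2 groups overlapped at the edge.

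The count held in both sets of animals. Without KO animals 3 and 9 and WT animals 1 and 12, 30 of 35 members lay below 0 with a median of -0.14, and among those 4 animals alone 31 of 35 did, also with a median of -0.14. Leaving out 1 animal at a time gave 32 to 34 members below 0 and medians from -0.16 to -0.10. Markers of other cells leaned with genotype in IP as well: 9 of 10 astrocyte markers were above 0 in KO over WT, with a median of 0.37 and a summed level of 147.8 to 506 CPM in KO against 196.4 to 366 CPM in WT. Oligodendrocyte markers were above 0 in 11 of 12, with a median of 0.22 and a summed level of 181 to 260.1 CPM in KO against 156.5 to 228 CPM in WT. Cortical markers had a median of 0.41, endothelial markers one of 0.41 and interneuron markers one of 0.68. The 7 tested microglia markers had a median of -0.17, with a summed level over the list of 4.31 to 9.68 CPM in KO against 8.31 to 12.3 CPM in WT. D1 markers lay below 0 in 7 of 10, with a median of -0.08, and D2 markers in 2 of 6, with a median of 0.10. None of these markers was called. No oligodendrocyte marker was at 0 in any IP library, and at most 1 astrocyte marker was, in WT. The part of these cells in the members' lean was not tested.

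**Figure D2:**
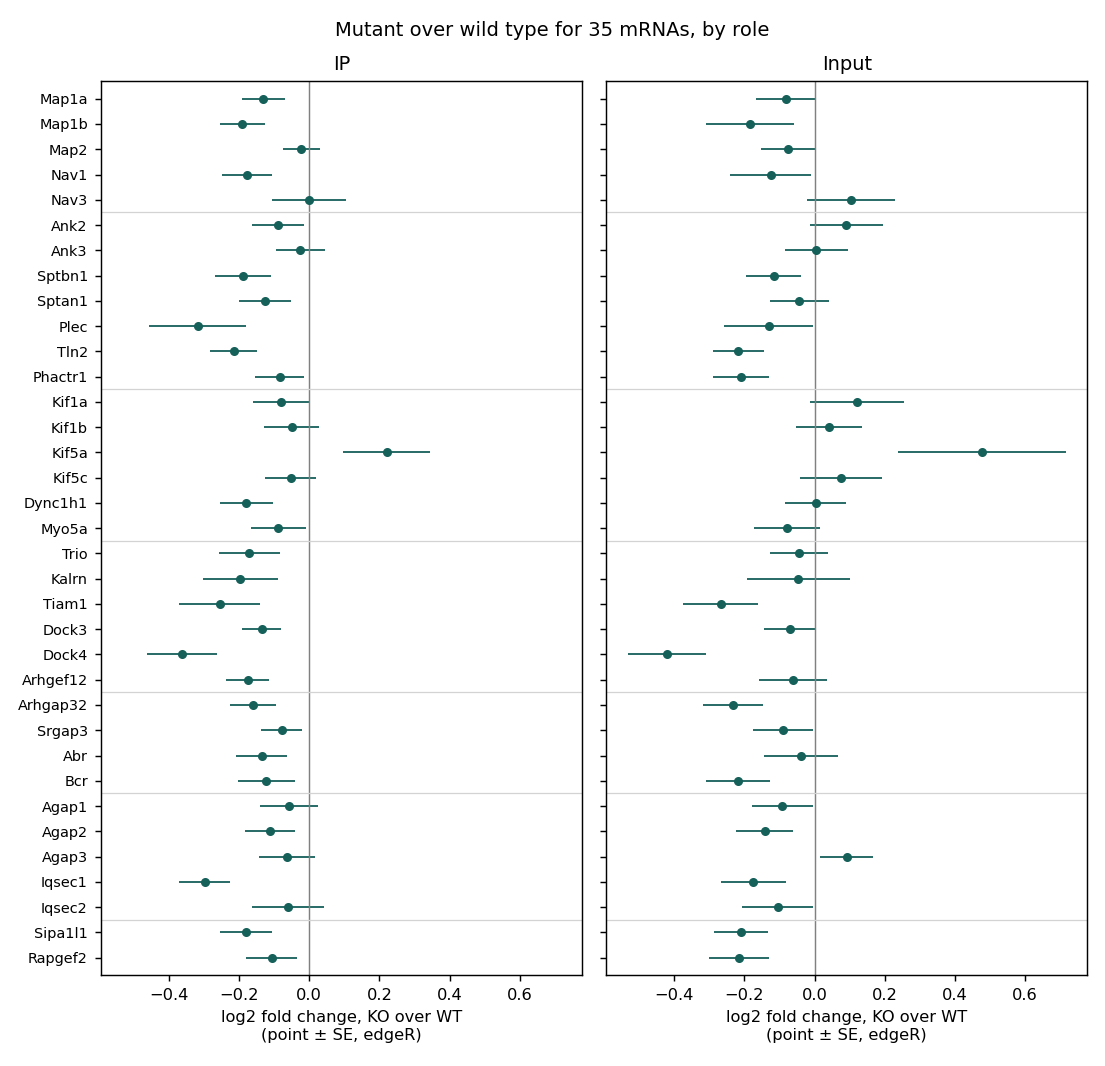
Log2 fold change of KO over WT (x axis, point and standard error) for each member in IP on the left and in input on the right, with grey lines between the 7 roles. In IP 34 of 35 points lie left of 0 and Kif5a lies right; in input 26 lie left and Kif5a is again farthest right at 0.48.

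Iqsec1 had the smallest p of the members. This exchange factor for Arf6 (chr6:90656088-90988685, minus strand) stood at 176, 168, 222, 186 and 180.4 CPM in KO IP and at 233, 207, 233, 238, 235 and 233 CPM in WT IP. KO animal 9 and WT animal 4 overlap, and the other 9 libraries part by genotype. The log2 fold change was -0.30 ± 0.07 (SE, adjusted p = 0.216 by edgeR), with an adjusted p of 0.0320 by DESeq2 and from 0.0320 to 0.893 over 17 alternatives. The authors' deposited table gives it an adjusted p of 0.0296, the only member of 35 under 0.05 there. Of the 10769 genes with an adjusted p in that comparison, 81 were called, 70 of them lower in the mutant. In input it was 147, 156, 193, 128 and 156 CPM in KO and 175, 184, 189, 177, 168 and 160.5 CPM in WT. A predicted gene covers 4.95% of the exon bases of Iqsec1, and the strand of that gene was not read here. Since the libraries do not mark the strand, reads of an antisense neighbour could not be told apart.

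Dock4 stood at 313 to 358 CPM in KO IP and 353 to 594 CPM in WT IP, values listed above, with KO animal 9 above the lowest WT animal, number 12. Its log2 fold change was -0.36 ± 0.10 (SE, adjusted p = 0.294), the most negative of the members. Leaving out 1 animal moved it between -0.41 and -0.26. Tln2 (chr9:67217087-67559703, minus strand) was the single member with every KO library below every WT library, where 0.595% of genes were so arranged. It had 253, 216, 241, 249.6 and 229.9 CPM in KO IP and 262, 256, 255, 293, 303 and 296 CPM in WT IP, so the gap between the groups was narrow. Its log2 fold change was -0.21 ± 0.07 (SE, adjusted p = 0.428).

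Map1b (chr13:99421446-99516540, minus strand) stood at 2019, 2139.5, 2444, 2166 and 2293 CPM in KO IP and 2553, 2465, 2490.1, 2528, 2291 and 2882 CPM in WT IP, with KO animal 9 and KO animal 11 above the lowest WT animal. The log2 fold change was -0.19 ± 0.06 (SE, adjusted p = 0.485). Its input levels spread more, at 1206, 1586, 1890.0, 1068 and 1249 CPM in KO and 1766, 1748, 1559.9, 1371, 1412 and 1659 CPM in WT.

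Arhgef12 (chr9:42963842-43107239, minus strand) stood at 343, 345, 353, 358 and 337 CPM in KO IP and 379.9, 380.0, 347, 395, 426 and 433 CPM in WT IP, with 1 WT library, that of animal 12, inside the KO range. The log2 fold change was -0.17 ± 0.06 (SE, adjusted p = 0.517), and another gene covers 8.88% of its exon bases. In input it was 231, 271, 278, 196 and 211 CPM in KO and 246, 283, 219.9, 234, 238 and 260.3 CPM in WT, with wide overlap.

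Nav1, a neuron navigator that follows growing microtubule ends (chr1:135434580-135607295, minus strand), stood at 98.0, 82.2, 98.0, 92.6 and 90.8 CPM in KO IP and 110.4, 110.4, 103, 97.5, 105 and 103 CPM in WT IP. KO animals 2 and 9 lay just above the lowest WT animal, and the log2 fold change was -0.18 ± 0.07 (SE, adjusted p = 0.584). Its input held 85.1, 88.3, 104, 63.4 and 79.2 CPM in KO and 100.2, 110.3, 81.6, 88.0, 90.6 and 76.8 CPM in WT.

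**Figure D3:**
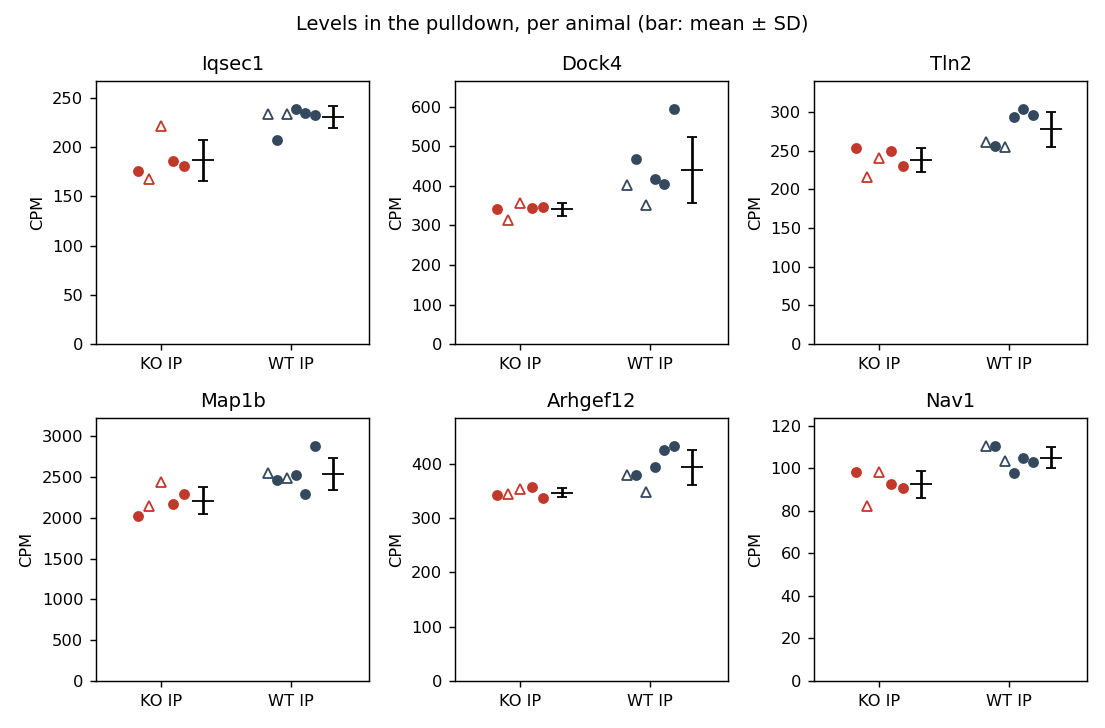
Level in IP (CPM, y axis from 0) of the 6 members with the smallest p, per animal, KO left of WT; open triangles mark animals 1, 3, 9 and 12, and bars show mean ± SD. The KO mean lies below the WT mean in each panel, and among the 6 only Tln2 shows no overlap between the groups.

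The other 8 members with an unadjusted p under 0.05 in IP were Map1a (-0.13), Sptbn1 (-0.19), Plec (-0.32), Dync1h1 (-0.18), Tiam1 (-0.25), Dock3 (-0.14), Arhgap32 (-0.16) and Sipa1l1 (-0.18), all as log2 fold changes of KO over WT, with adjusted p from 0.587 to 0.648. At the other end lay Nav3 (-0.000456), Map2 (-0.02) and Ank3 (-0.03), whose distance from 0 was less than their standard errors of 0.11, 0.05 and 0.07. Kif5a lay at 0.22 ± 0.12 on the log2 scale (SE, adjusted p = 0.749), with KO animals 3, 9, 10 and 11 above every WT animal and KO animal 2 below every one.

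In input, mutant and wild type were compared to see whether the lysate showed the same. No member was called by edgeR or DESeq2, against 3 of 16429 genes (0.0183%) by edgeR and 28 (0.17%) by DESeq2. A fold change below 0 was found for 26 of 35 members (49.5% of all genes), the median was -0.08, and 8 members had an unadjusted p under 0.05, all lower in KO (3.68% of all genes lower at that level). Of the 6 motors 5 lay above 0, with a median of 0.06, while the 10 exchange factors and GTPase-activating proteins for Rac, Cdc42 or RhoA all lay below. Markers of medium spiny neurons lay below 0 in input too. All 10 D1 markers did, with a median of -0.27 and a summed level of 746 to 1047 CPM in KO against 917 to 1268 CPM in WT, and so did all 6 tested D2 markers, with a median of -0.13. Cortical markers had a median of 0.53 and astrocyte markers one of 0.19 in KO over WT input. None of these was called, and their part in the members' input values was not tested. The 3 members with the smallest p were Dock4, Tln2 and Sipa1l1. Dock4 was 133, 129, 122, 151 and 126 CPM in KO input and 186, 184, 135, 152, 170.2 and 233 CPM in WT input, and the log2 difference was -0.42 ± 0.11 (SE, adjusted p = 0.411).

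Tln2 in input was 122, 109.9, 110.0, 113 and 110.2 CPM in KO and 134, 139, 120.2, 124, 129.6 and 140.0 CPM in WT, with KO animal 2 alone above the lowest WT animal (-0.22 ± 0.07, SE, adjusted p = 0.543). Sipa1l1 ranged over 349 to 409 CPM in KO input and 383 to 473 CPM in WT input (-0.21 ± 0.08, SE, adjusted p = 0.597). Kif5a had the largest positive value, 0.48 ± 0.24 (SE, adjusted p = 0.768). Its KO input levels spread from 802.5 to 1848 CPM and its WT levels from 709.9 to 1283 CPM, as listed above.

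The input lean did not hold across both sets of animals. Without animals 1, 3, 9 and 12, 32 of 35 members lay below 0 with a median of -0.18. Among those 4 animals alone 13 of 35 did, and the median was 0.07. In the IP the median had the same sign in both sets. The mean level of the 35 mRNAs in input was 7.82 to 8.10 log2 CPM in KO and 7.97 to 8.07 log2 CPM in WT, with KO animals 3 and 9 above the other 3 KO animals.

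**Figure D4:**
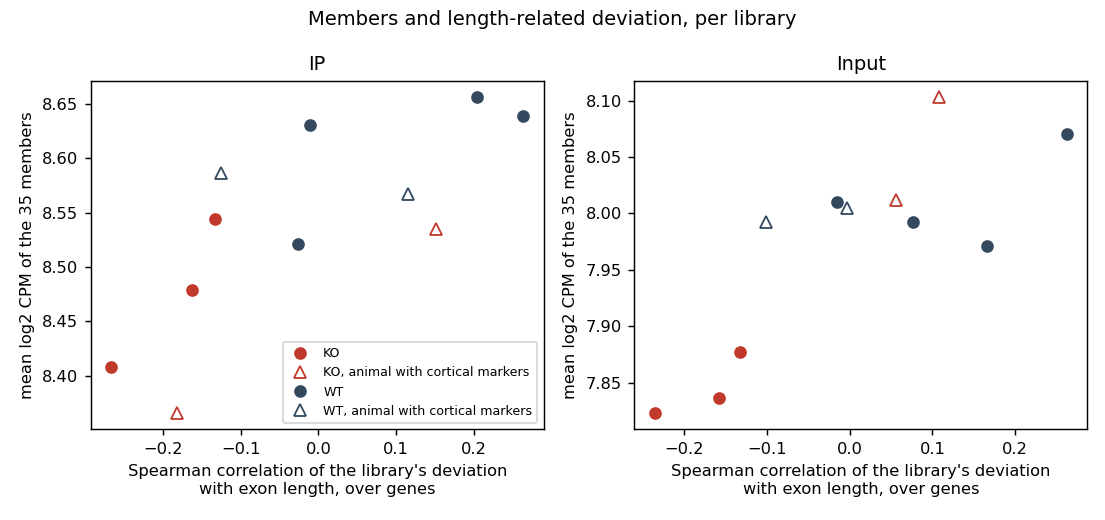
Mean log2 CPM of the 35 mRNAs (y axis) in each library against the Spearman correlation, over 8625 genes, of that library's deviation from its assay mean with exon length (x axis), for IP and input, KO red and WT dark, triangles for animals 1, 3, 9 and 12. In IP the 3 lowest points are KO libraries and the 5 highest are WT libraries; in input 3 KO libraries lie below all others.

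Whether IP over input itself differed between the genotypes was tested as an interaction over the 22 libraries. The main fit did not pair each animal's IP with its input. By edgeR 0 of 17311 genes (0.0%) and 0 of 35 members passed, no member had an unadjusted p under 0.05 (4.1% of all genes), and DESeq2 called 5 genes (0.0289%) and no member. The difference of log2 ratios, KO minus WT, was below 0 for 23 members (49.8% of all genes) and above 0 for 12, with a median of -0.06. It was most negative in the motors, where all 6 lay below 0 with a median of -0.17. The 3 members with the smallest p were Dync1h1 (-0.19 ± 0.12, SE, adjusted p = 1), Agap3 (-0.17 ± 0.10, adjusted p = 1) and Ank2 (-0.19 ± 0.13, adjusted p = 1). The count depends on the animals: without animals 1, 3, 9 and 12, 15 members lay below 0 and the median was 0.03, and among those 4 alone 31 did, with a median of -0.19. Pairing, with the animal as a block, changed some standard errors. Kif5a was then at -0.27 ± 0.12 (SE, against 0.28 unpaired) and Kif1a at -0.21 ± 0.10 (against 0.17). Dync1h1 stayed at -0.19 ± 0.12, and none of them was called.

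Fold changes leaned with transcript length over the genes tested, and the members are long. Among genes tested in IP, the middle log2 value of KO over WT was 0.12 for the 944 genes with under 1 kb of exon, 0.02 for those with 2 to 4 kb and -0.05 for the 835 with over 12 kb, of which 64.9% lay below 0. The 23 members in that last bin had a median of -0.16, and 20 of them lay below the bin's own median. Over all bins 31 of 35 members lay below the median of their bin, and the median of the 35 differences was -0.09. In input 26 of 35 did. Across the 14456 genes Spearman's correlation of the fold change with exon length was -0.16 in IP, and over the 16429 of input it was -0.12, each a description over genes that share the same libraries. Without the filter on low counts these became -0.02 in each. With coding length in place of exon length the IP value was -0.25, over the 12462 genes that have a coding sequence. Leaving out 1 animal at a time, the correlation with exon length ran from -0.20 to -0.09 in IP and from -0.15 to -0.07 in input. The standard error over animals from these fits (jackknife) was 0.097 in IP and 0.083 in input, wide beside the values themselves.

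The relation with length varied between animals. Per library, the correlation of its deviation with exon length ran from -0.27 to 0.15 in KO IP and from -0.12 to 0.26 in WT IP. Among animals 1, 3, 9 and 12 alone, the correlation across genes between the IP fold change and exon length was 0.02, while 31 of 35 members were below 0, and without these animals it was -0.20, with 30 of 35 below 0. IP over input was also higher for longer genes: the median in KO was -0.52 for genes under 1 kb and 0.21 for those over 12 kb, and in WT it was -0.59 and 0.24. Of the 35 members 28 lay above the median of their bin in each genotype. The part of length in the members' values was not tested.

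**Figure D5:**
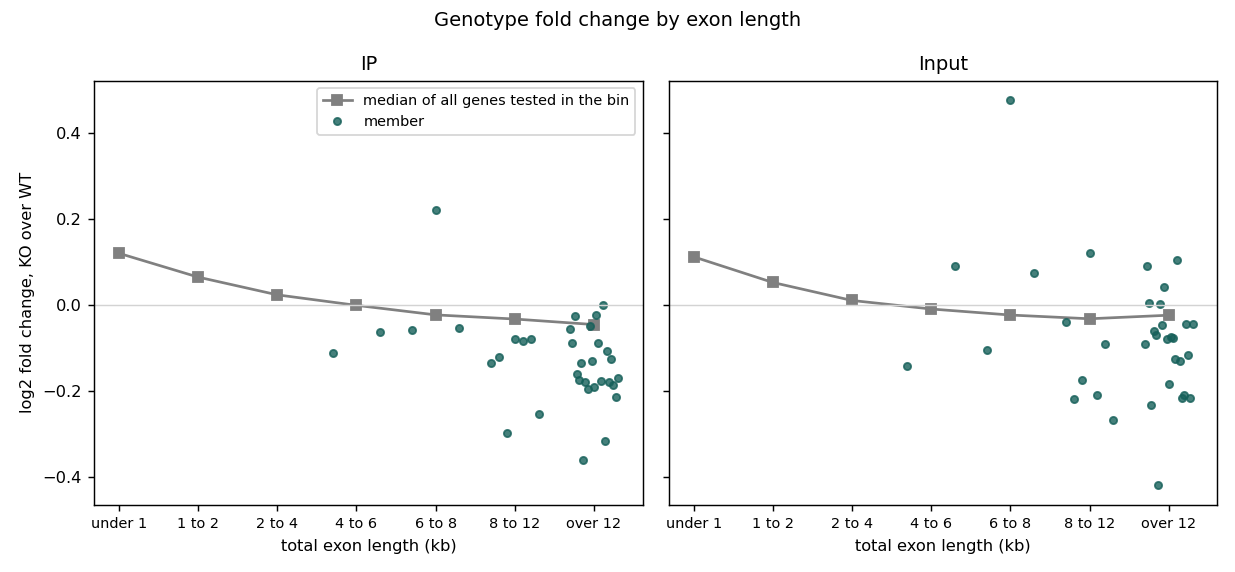
Log2 fold change of KO over WT (y axis) by total exon length in 7 bins (x axis, kb), for IP on the left and input on the right; squares give the median of all genes tested in the bin and dots the 35 members. The medians go from 0.12 in the shortest bin to -0.05 in the longest in IP, and 20 of the 23 members over 12 kb lie below that of the longest bin.

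Other genes of the same pathways were read in 5 lists beside the members. None of them was called by edgeR between the genotypes in IP or in input. In IP the median log2 fold change of KO over WT was -0.05 for 75 other regulators of small GTPases (49 below 0, 14 at an unadjusted p under 0.05), -0.01 for 45 small GTPases, effectors and WAVE complex subunits (24 below 0, 6 at that level), 0.01 for 28 other kinesin, dynein and dynactin subunits (12 below 0, 2 at that level), 0.04 for 33 tubulins and other microtubule-binding proteins (13 below 0, 3 at that level) and -0.04 for 41 actin, spectrin and membrane skeleton genes (23 below 0, 7 at that level). Over all genes tested in IP, 7.62% had an unadjusted p under 0.05 in either direction. The median exon length of these lists ran from 3701 to 8776 bases, against 14448 for the members.

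Arhgap35, a GTPase-activating protein for RhoA, had a log2 fold change of -0.28 ± 0.06 (SE) in KO over WT IP (adjusted p = 0.156), and Rasgrp1, a Ras exchange factor of the striatum, -0.20 ± 0.06 (adjusted p = 0.401). Nckap1 and Cyfip2, subunits of the WAVE complex that drives actin branching, had -0.28 ± 0.06 (adjusted p = 0.176) and -0.19 ± 0.06 (adjusted p = 0.388). These were the 2 smallest p of each list, whatever the size of the value. In the other 3 lists the smallest p were those of the small dynein subunits Dynlt3 (0.14 ± 0.06) and Dynlrb1 (0.19 ± 0.08), of Map1lc3b, the LC3 protein of autophagosomes (0.23 ± 0.07), and of Map1s (-0.28 ± 0.13), a Map1 relative, Add3 (-0.30 ± 0.10), an adducin, and Sptb (-0.24 ± 0.10), a beta spectrin. In input the 2 genes of each list with the smallest p were Rasgrp1 (-0.30), Arhgap20 (-0.30), Nckap1 (-0.33), Cfl2 (0.23), Dctn2 (0.29), Kif1c (0.25), Tubb4b (0.37), Map1lc3b (0.21), Myh10 (-0.22) and Ppp1r9a (-0.20), with adjusted p from 0.366 to 0.813.

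In IP over input these lists were mixed. Of the other GTPase regulators 39 rose and 20 fell in KO, and 38 rose and 18 fell in WT, of 75. Rasgrp1 rose by 1.03 in KO and 0.95 in WT, and Arhgap20, a striatal GTPase-activating protein, by 1.10 and 1.02. Arhgef10 fell (-3.14 in KO and -2.66 in WT), Prex2 fell in KO (-2.36) and Dock1, a relative of Dock3 and Dock4, fell in WT (-3.43). Of the small GTPases and effectors 21 rose in each genotype, and 10 fell in KO and 14 in WT. Cyfip2 rose by 0.96 in KO and 0.98 in WT, Abi2 by 0.79 in KO and Wasf1 by 0.94 in WT. Rap1a fell (-1.27 in KO and -1.14 in WT), as did Rock1 in KO (-1.32) and Rnd2 in WT (-1.57).

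Of the other motor subunits 16 rose and 5 fell in each genotype. Kif21a (1.05 in KO and 1.11 in WT) and Kifap3 (0.86 and 0.81) rose, Kif1c (-2.37 and -2.52) and Kif13b (-1.81 and -2.05) fell, and the dynein light intermediate chains Dync1li1 (0.63 and 0.61) and Dync1li2 (0.54 and 0.56) rose with their heavy chain. Of the tubulins and other microtubule-binding proteins 17 rose and 8 fell in KO, and 17 rose and 7 fell in WT. Camsap2 rose by 0.84 in each, Pafah1b1 by 0.68 in KO and Camsap1 by 0.84 in WT. Tubb2b fell (-4.08 in KO and -3.84 in WT), as did Tubb4a in KO (-0.90) and Map1lc3b in WT (-0.58). In the actin and spectrin list 14 rose and 15 fell in KO, and 18 rose and 14 fell in WT. Add2 rose by 0.87 in KO and 0.78 in WT, Ppp1r9a by 1.08 in KO and Actg1 by 0.94 in WT. Epb41l2 fell in KO (-1.14), as did Tln1 in both genotypes (-1.41 in KO and -1.46 in WT), whereas its paralogue Tln2 is among the enriched members. Tubulin and actin genes are near-identical families between which counting can split reads, so their values are uncertain.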

How the data were processed

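Polyadenylated RNA from D1-neuron IP and from input of 5 KO and 6 WT mice was sequenced in paired ends from strand-blind libraries, with pulldowns and sequencing each in a single batch, per the labels' protocols. The authors deposited raw counts per gene, and separate tables of their own comparisons with log2 fold changes and p-values. The deposited log2 values run WT over mutant and were turned round here. STAR, featureCounts, DESeq2 and mm10 are named, without versions, per the submitters' processing notes.

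Counts were tested with edgeR 4.0.16 (R 4.3.3; TMM scaling, filterByExpr, robust quasi-likelihood fits, Benjamini-Hochberg adjusted p under 0.05), within each assay for genotype, and over the 22 libraries for IP over input and its genotype difference. The fits over the 22 libraries took the groups as unpaired, and the animal block was the paired alternative. A log2 fold change is KO over WT or IP over input. Levels on the log2 scale carry a prior of 2 counts. Simulated counts were run through the edgeR genotype test in IP only, with changes larger than any member showed there. DESeq2 1.42.0 was an alternative, beside RLE scaling, other filters on low counts, leaving out animals, and an animal block. Summaries used Python 3.11.15, pandas 2.3.3, numpy 2.4.6 and scipy 1.17.1. Exon and coding sequences came from GENCODE vM21. Depth per library was 9375611 to 82376192 counts. The replicates are separate animals, and no 2 libraries of a group agreed within sampling noise.

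The 35 members and all lists were chosen with earlier results of these data known. Values in every library are printed for Fmr1, for the 6 members with the smallest p between genotypes in IP, and for the 3 highest and 3 lowest members in IP over input in WT. The 3 members with the smallest p are named in each other genotype comparison, and 2 genes per direction in each list, of which 1 is not reported here. An animal's number joins the IP and the input of 1 lysate. Deviations of the paired libraries from their group means correlated with r of 0.20 to 0.57 over 4710 genes.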

Additional observations from a re-analysis of the deposited data

Results flagged for a closer look

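In 7 of 140 groups of libraries (35 members in 4 groups), 1 animal stood far from the others by Dixon's criterion, which chance alone reaches in about 1 group in 20. In KO IP, Kif5c was at 797 CPM in animal 9, against 629.7 in the next, and Srgap3 at 323 CPM in animal 3, against 340.2. In KO input, Kalrn was at 347 CPM in animal 9, against 225 in the next, and Tln2 at 122 CPM in animal 2, against 113. In WT IP, Arhgap32 was at 916 CPM in animal 20, against 779 in the next, and Iqsec1 at 207 CPM in animal 4, against 233. In WT input, Myo5a was at 538 CPM in animal 20, against 589 in the next.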

How the results depend on the processing

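Among values of single members under alternatives, 1437 kept direction and side of the threshold, 37 lost a call, 12 gained one and 15 turned sign. The cause of each change was not tested.

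Between genotypes in IP, DESeq2 called 75 genes and 1 member, animals 1, 3, 9 and 12 alone gave 3 genes, and leaving out 1 animal gave 4 to 8. In input DESeq2 called 28 genes, no filter on low counts gave 5, leaving out those 4 animals gave 7, those 4 alone gave 8, and leaving out 1 animal gave 2 to 7. Input members below 0 numbered 13 in those 4 alone, with a median of 0.0725, and the median was -0.178 without them.

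For IP over input those 4 animals alone gave 4005 calls in KO and 3929 in WT. In KO that left 19 members called and 6 below 0, with a median of 0.380, against 0.688 without these animals. Calls in the small GTPase list were then 19 in KO and 20 in WT, in the motor subunit list 13 and 12, in the tubulin list 12 in KO and in the actin list 17 in WT. Relative to the median of their length bin, 7 members lay below 0 in each genotype. For the genotype difference DESeq2 called 5 genes and leaving out 1 animal gave 0 to 2. Without those 4 animals 15 members lay below 0, and in those 4 alone the median was -0.186.

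Spearman's correlation with exon length was -0.0246 without a filter and 0.0175 in those 4 animals alone in IP, and -0.0185 and 0.0812 in input. For IP over input in KO it was 0.148 and 0.180, and 0.204 to 0.212 leaving out 1 animal. In WT it was 0.157 and 0.208, with 0.255 for coding length over the 14023 genes that have a coding sequence.

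Signs turned for Sipa1l1 in input (0.0308 in those 4 animals alone) and, in KO IP over input, for Map1a (-0.0456) and Nav1 (-0.0677) in those 4 alone. Ank2 there became 0.0216 without a filter, 0.178 without those 4 animals and 0.0143 with the replicate block, and ran from -0.0476 to 0.0669 leaving out 1 animal, above 0 without animal 3, 9 or 20. Sptan1 there became -0.0256 with RLE scaling and with DESeq2, -0.0125 with the CPM filter and -0.127 in those 4 alone, and ran from -0.0237 to 0.0823 leaving out 1 animal, below 0 without animal 10 or 11.

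With the replicate block, which pairs each animal's IP and input, 8906 genes and 30 members were called in KO and 9319 genes and 34 members in WT. Animals 1, 3, 9 and 12 were set apart by their marker levels, and the depth of 9375611 counts in the shallowest IP library limits low genes most.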
